A study of Mus musculus with 11 samples.

Results

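Replication-dependent histone genes encode the proteins around which newly copied DNA is wrapped: the core histones H2A, H2B, H3 and H4, of which nucleosomes are built, and the linker histone H1, which binds between nucleosomes. They were taken as every gene symbol of the families H1f1 to H1f5, H2ac, H2bc, H3c and H4c in the deposited table, which gave 58 of 17181 genes: 5 of H1, 15 of H2A, 16 of H2B, 11 of H3 and 11 of H4. The set was chosen because these genes lay higher in tumours given palbociclib. Comparisons of palbociclib with no palbociclib are therefore given below as description. Counts of histone genes passing a test in them appear only in the closing sections, restate that choice and test nothing. Of the 58, 49 lie on mouse chromosome 13 and 8 on chromosome 3, by RefSeq. The GENCODE annotation, used for transcripts, matched 57 of them.

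The 11 libraries are of tumours from 4T1, a line of mouse mammary carcinoma that stands in for triple-negative disease, labelled wild type and placed under the skin of both flanks. Mice received vehicle (sodium lactate, corn oil and DMSO, 2 tumours), OPG-Fc at 10 mg/kg into the peritoneum 3 times a week (3 tumours), palbociclib at 30 mg/kg per day by mouth (3 tumours) or both drugs (3 tumours, called the combination) for 12 days from a tumour volume of about 100 mm3. OPG-Fc takes up RANKL as a soluble decoy, and palbociclib inhibits CDK4 and CDK6, kinases that let cells pass from G1 into S phase. The hosts are given as NSG mice, which lack T, B and NK cells, while the title calls the model syngeneic, and all groups come from the same line in the same hosts. The labels do not say which tumours share an animal, so p-values measure the spread between these tumours; the column names of combination replicates 1 and 2, and of OPG-Fc replicates 2 and 3, share a first number whose meaning is not given.

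In dividing cells, transcription of these genes is switched on at the start of S phase by Npat, a coactivator held at histone gene clusters and phosphorylated by cyclin E with CDK2. Their messages are the textbook case of mRNA that usually carries no poly(A) tail: a short hairpin near the stop codon is bound by Slbp, the stem-loop binding protein, and the RNA is cut just after it by a complex with the U7 RNA. Some of the genes also give polyadenylated RNA. The libraries here were enriched with oligo(dT) beads and primed with random hexamers, so a value can change with the amount of histone message, with the share of it that has a poly(A) tail, or with the amount of untailed RNA carried through the beads. These cannot be told apart in the table. In bulk tumours, fewer cells that make histone RNA and less of it per cell cannot be told apart either.

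The hairpin was looked for in the annotated transcripts, because it defines the untailed 3′ end. A form with a stem of 6 and a loop of 4 bases was found in 37 of the 58 genes. Capitals mark the paired stem and lower case the loop, 5′ to 3′.
22 genes (H1, H2A, H2B and H3): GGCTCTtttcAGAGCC
5 genes (H2B and H3): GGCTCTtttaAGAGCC
1 gene (H2ac20): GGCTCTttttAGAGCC
5 genes (H4): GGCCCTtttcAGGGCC
2 genes (H4c9 and H4c14): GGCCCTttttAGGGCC
2 genes (H4c2 and H4c11): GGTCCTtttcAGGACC
The H4 genes differ from the other families in the stem, whose change on each side keeps the pairing. For the other 21 genes the annotated transcript did not hold these forms, and several of those models end at or just after the stop codon. By the longest annotated 3′ UTR, 24 genes had a long 3′ end of at least 100 bases, as in H1f3 (4931 bases), H2bc21 (2192 bases) and H2ac6 (2058 bases), and 33 had a shorter one.

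The promoters are shown because many of the genes were highest in the same libraries. RefSeq promoter windows, from 250 bases before to 50 after the start on GRCm38.p6, existed for 52 of the 58 genes. Searched on both strands, CCAAT, the box bound by NF-Y, was in 45 of the 52 (86.5%), against 41.1% of 27025 genes; it was in every H1, H2A, H2B and H3 window and in 3 of 10 H4 windows. TATAAA was in 31 of 52 (59.6%, against 15.7%). ATTTGCAT, the octamer bound by Oct-1, was in 6 of 13 H2B and 5 of 15 H2A windows and in no other family, against 1.97% of all genes. The windows of H2ac12 and H2bc12 overlap and hold the same octamer, as do those of H2ac8 and H2bc8. Such an octamer is counted in both families, and motif counts are thus not all of separate sequences. AAACACA, the H1 box, was in 4 of 5 H1 windows, against 8.22% of all genes. Each window below was from a gene whose combination libraries lay above the other 8; capitals mark these motifs in either orientation, and no match overlaps another there.
H1f4, chr13:23622509-23622808, minus strand: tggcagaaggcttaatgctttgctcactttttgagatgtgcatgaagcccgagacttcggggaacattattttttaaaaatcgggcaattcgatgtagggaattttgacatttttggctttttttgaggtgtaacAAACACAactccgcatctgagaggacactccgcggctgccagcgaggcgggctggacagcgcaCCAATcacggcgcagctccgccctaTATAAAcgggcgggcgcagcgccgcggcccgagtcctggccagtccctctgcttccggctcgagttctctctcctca
H2ac6, chr13:23683910-23684209, minus strand: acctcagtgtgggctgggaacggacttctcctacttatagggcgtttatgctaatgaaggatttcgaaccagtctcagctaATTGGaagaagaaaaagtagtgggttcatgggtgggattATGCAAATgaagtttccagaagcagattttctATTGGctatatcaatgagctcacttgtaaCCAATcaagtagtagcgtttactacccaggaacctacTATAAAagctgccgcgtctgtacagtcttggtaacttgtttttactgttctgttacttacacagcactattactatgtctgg
H2ac23, chr13:21810117-21810416, plus strand: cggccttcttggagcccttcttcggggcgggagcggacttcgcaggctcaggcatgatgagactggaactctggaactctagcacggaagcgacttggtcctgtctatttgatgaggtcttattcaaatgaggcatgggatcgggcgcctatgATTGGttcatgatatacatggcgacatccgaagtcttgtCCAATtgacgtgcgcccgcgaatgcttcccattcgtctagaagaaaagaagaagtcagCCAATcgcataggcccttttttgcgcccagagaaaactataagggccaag
H4c4, chr13:23581318-23581617, plus strand: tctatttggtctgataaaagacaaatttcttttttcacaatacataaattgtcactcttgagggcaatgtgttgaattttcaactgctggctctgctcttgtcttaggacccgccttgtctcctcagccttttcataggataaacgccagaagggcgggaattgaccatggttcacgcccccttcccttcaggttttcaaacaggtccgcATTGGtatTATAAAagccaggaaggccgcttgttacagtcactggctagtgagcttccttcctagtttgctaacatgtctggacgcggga
The H2ac23 window shares 267 bases with that of H2bc23, which is read from the other strand. A match describes letters in the window and is not a measured binding site.

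By its markers vehicle replicate 2 was unlike the other 10 libraries, and the histone counts and differences that rest on the vehicle group are given with and without it. The 4 epithelial markers Epcam, Krt8, Krt18 and Cldn7, which check the labelled epithelial identity, summed to an FPKM of 38.5 there and to 1916 to 2774 in the other 10, and the 3 B and plasma cell markers Cd79a, Jchain and Ms4a1 to 4873, against 564 in OPG-Fc replicate 2 and 0.25 to 14.0 elsewhere. Summed FPKM over all genes ran from 576699 to 864670, highest in combination replicate 3. Ribosomal protein genes made up 20.5% to 23.6% of it without palbociclib, 27.3% to 32.6% under palbociclib alone, and 26.8% to 34.1% in the combination. Skin keratinocyte markers were high in palbociclib replicates 1 and 3, with a mean log2(FPKM + 1) of 6.32 and 5.90 against 0.32 to 2.83 in the other 9.

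Histone genes were highest in the combination tumours. The mean of log2(FPKM + 1) over the 58 genes was 0.86 and 1.47 in the vehicle libraries, 1.33, 1.61 and 1.16 with OPG-Fc, 1.18, 1.64 and 1.35 with palbociclib, and 2.33, 1.91 and 2.66 with the combination. All 3 combination libraries lay above the other 8, while the vehicle, OPG-Fc and palbociclib libraries overlapped. In 53 of the 58 genes the highest of all 11 values was in a combination library: 40 in replicate 3, 10 in replicate 1 and 3 in replicate 2. Of the 58 genes, 22 had every combination library above every other library (37.9%), against 2.06% of all genes in the table; without vehicle replicate 2 these were 26 (44.8%), against 2.99%. This contrast holds both drugs' libraries, among them those behind the choice of genes.

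**Figure D1:**
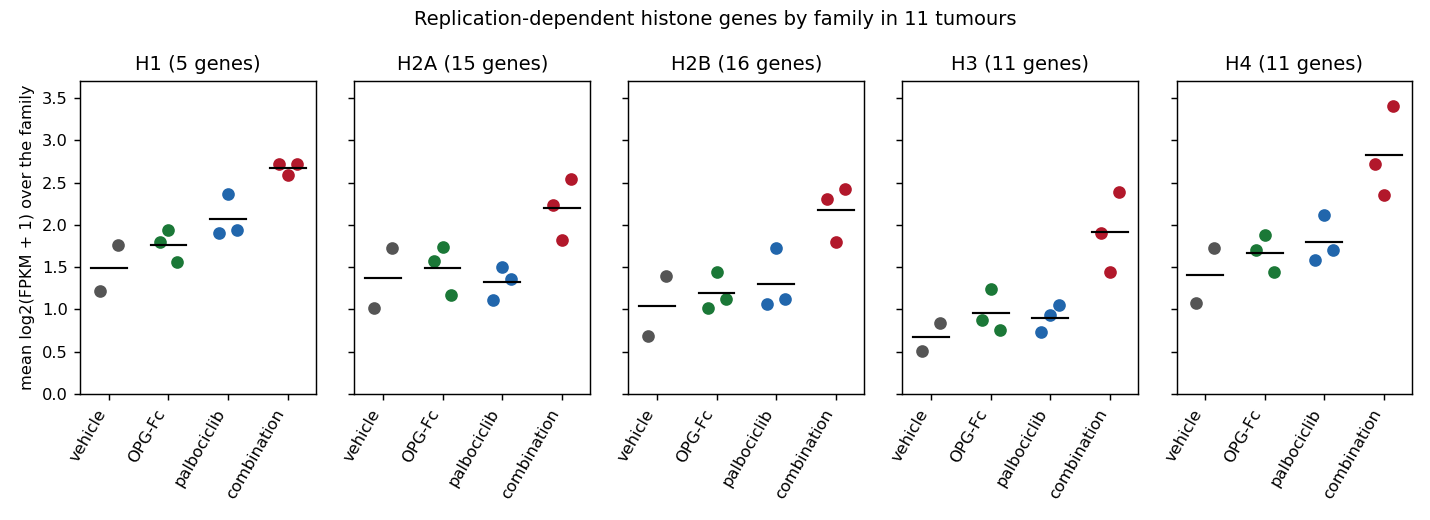
Mean log2(FPKM + 1) over the genes of each histone family (vertical axis) in each tumour (points), by treatment, with the group mean as a line; 2 vehicle tumours and 3 of each other group. In every family the 3 combination tumours sit above the other 8, for H4 at 2.35 to 3.41 against 1.08 to 2.11.

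Abundant and scarce genes differed in how far the combination stood from the rest. The 4 most abundant genes were set against the rest. H2ac18, H1f2, H2bc4 and H4c9 had the highest mean FPKM over the 11 libraries (36.1, 33.7, 24.2 and 14.7). Their summed FPKM was 61.4 and 101 with vehicle, 102, 117 and 94.3 with OPG-Fc, 92.3, 141 and 83.4 with palbociclib and 119, 135 and 149 with the combination, which lay above vehicle and OPG-Fc and overlapped palbociclib. The other 54 genes summed to 43.3 and 103 with vehicle, 76.4, 116 and 58.5 with OPG-Fc, 58.2, 109 and 84.5 with palbociclib and 227, 149 and 298 with the combination. For these 54 all combination libraries lay above the rest, and the ratio of group means between the combination and palbociclib was 2.67, against 1.27 for the 4 abundant genes. By family the same ratio of summed FPKM was 1.26 for H1, 1.74 for H2A, 2.04 for H2B, 3.23 for H3 and 2.30 for H4. Such a ratio follows the abundant genes of a family: under palbociclib, H1f2 held a mean FPKM of 37.4 of the 44.5 summed over H1.

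Among the linker histones, H1f2 was the most abundant, with an FPKM of 14.2 and 26.9 in vehicle, 33.2, 34.6 and 31.2 with OPG-Fc, 30.9, 51.1 and 30.1 with palbociclib and 36.4, 47.3 and 35.2 with the combination. Both vehicle libraries lay below all others the combination lay above OPG-Fc, and palbociclib overlapped both. H1f4 had an FPKM of 0.90 and 1.36 in vehicle, 1.43, 2.28 and 1.06 with OPG-Fc, 2.57, 4.18 and 3.31 with palbociclib and 7.28, 7.35 and 6.81 with the combination. Its palbociclib libraries lay above every vehicle and OPG-Fc library, and its combination libraries above every palbociclib library. H1f3, another replication-dependent H1, ran from 0.35 to 1.91 without palbociclib, from 1.55 to 3.53 with it and from 4.73 to 5.25 with the combination. H1f1 stayed between 0 and 0.69 in every library and was not tested.

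In the H2A family, whose dimers with H2B flank the H3 and H4 core, H2ac18 had an FPKM of 17.5 and 45.4 in vehicle, 27.0, 39.4 and 25.1 with OPG-Fc, 32.2, 48.1 and 28.2 with palbociclib and 32.7, 43.1 and 58.04 with the combination. All 4 groups overlapped. H2ac10 did not follow the set: its FPKM was 13.1 and 21.5 in vehicle, 4.98, 24.9 and 5.60 with OPG-Fc, 2.52, 0.53 and 7.97 with palbociclib and 10.8, 1.88 and 3.63 with the combination. Its vehicle libraries lay above every palbociclib and combination library, and OPG-Fc replicate 2 was the highest of all. Vehicle replicate 2 and OPG-Fc replicate 2 also held the most B and plasma cell RNA, and vehicle replicate 1, at 13.1 for H2ac10, held little of it. The part of such cells in H2ac10 was not tested. H2ac6 was scarce, at 0.17 and 0 in vehicle, 1.13, 1.14 and 0.51 with OPG-Fc, 0.35, 1.05 and 0.17 with palbociclib and 2.40, 2.88 and 3.54 with the combination.

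Of the H2B genes, H2bc4 had an FPKM of 20.1 and 13.8 in vehicle, 28.1, 26.9 and 26.6 with OPG-Fc, 18.9, 27.8 and 16.6 with palbociclib and 30.8, 24.7 and 32.2 with the combination. Its OPG-Fc libraries lay above both vehicle libraries, and palbociclib overlapped every other group. H2bc23 had 0.77 and 2.32 in vehicle, 1.83, 2.47 and 1.63 with OPG-Fc, 2.52, 4.12 and 2.62 with palbociclib and 8.18, 5.50 and 11.7 with the combination. Its combination libraries lay above all others and its palbociclib libraries above all libraries without palbociclib. H2bc24 held the same value as H2bc23 in all 11 libraries, so the pair carries a single measurement. H2bc21 was highest in vehicle replicate 2, at 4.45, and lay between 1.15 and 1.92 in the other 10.

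H3 genes, which carry the best known histone tail modifications, were scarce, and their summed FPKM had the largest of the 5 family ratios between the combination and palbociclib. The order depended on the measure. By the median difference in log2(FPKM + 1), H3 (0.87) was below H1 (0.92), H4 (0.94) and H2B (0.98) and above H2A (0.70). H3c13 had an FPKM of 0.86 and 0.60 in vehicle, 0.87, 2.84 and 1.04 with OPG-Fc, 2.45, 3.50 and 3.12 with palbociclib and 3.93, 4.41 and 8.60 with the combination. H3c10 had 1.10 and 1.91 in vehicle, 0.69, 3.27 and 1.62 with OPG-Fc, 0.34, 1.05 and 0.97 with palbociclib and 10.1, 2.33 and 6.41 with the combination. For H3c13 palbociclib lay above vehicle, for H3c10 below it, and for both the combination lay above palbociclib. H3c3 had 1.13 and 2.07 in vehicle, 0.85, 1.86 and 1.74 with OPG-Fc, 0.80, 1.32 and 1.47 with palbociclib and 4.00, 4.64 and 4.69 with the combination, where the lowest combination value was above the highest of any other group.

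Among the H4 genes, H4c9 had an FPKM of 9.69 and 15.4 in vehicle, 13.3, 16.1 and 11.5 with OPG-Fc, 10.3, 14.5 and 8.44 with palbociclib and 19.3, 19.7 and 23.6 with the combination. H4c18 had 2.53 and 4.76 in vehicle, 7.96, 6.13 and 3.47 with OPG-Fc, 3.01, 10.9 and 9.15 with palbociclib and 11.9, 7.27 and 11.9 with the combination. The combination stood clear of the other 8 libraries for H4c9 but overlapped OPG-Fc and palbociclib for H4c18. H4c4 had 2.31 and 5.15 in vehicle, 2.22, 4.19 and 3.32 with OPG-Fc, 2.61, 3.64 and 2.01 with palbociclib and 10.3, 7.99 and 19.1 with the combination, again with no overlap between the combination and the rest. The protein of all H4 genes is nearly the same, and fragments from their coding parts may be shared between copies, so values of single copies are less certain than those of the family.

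**Figure D2:**
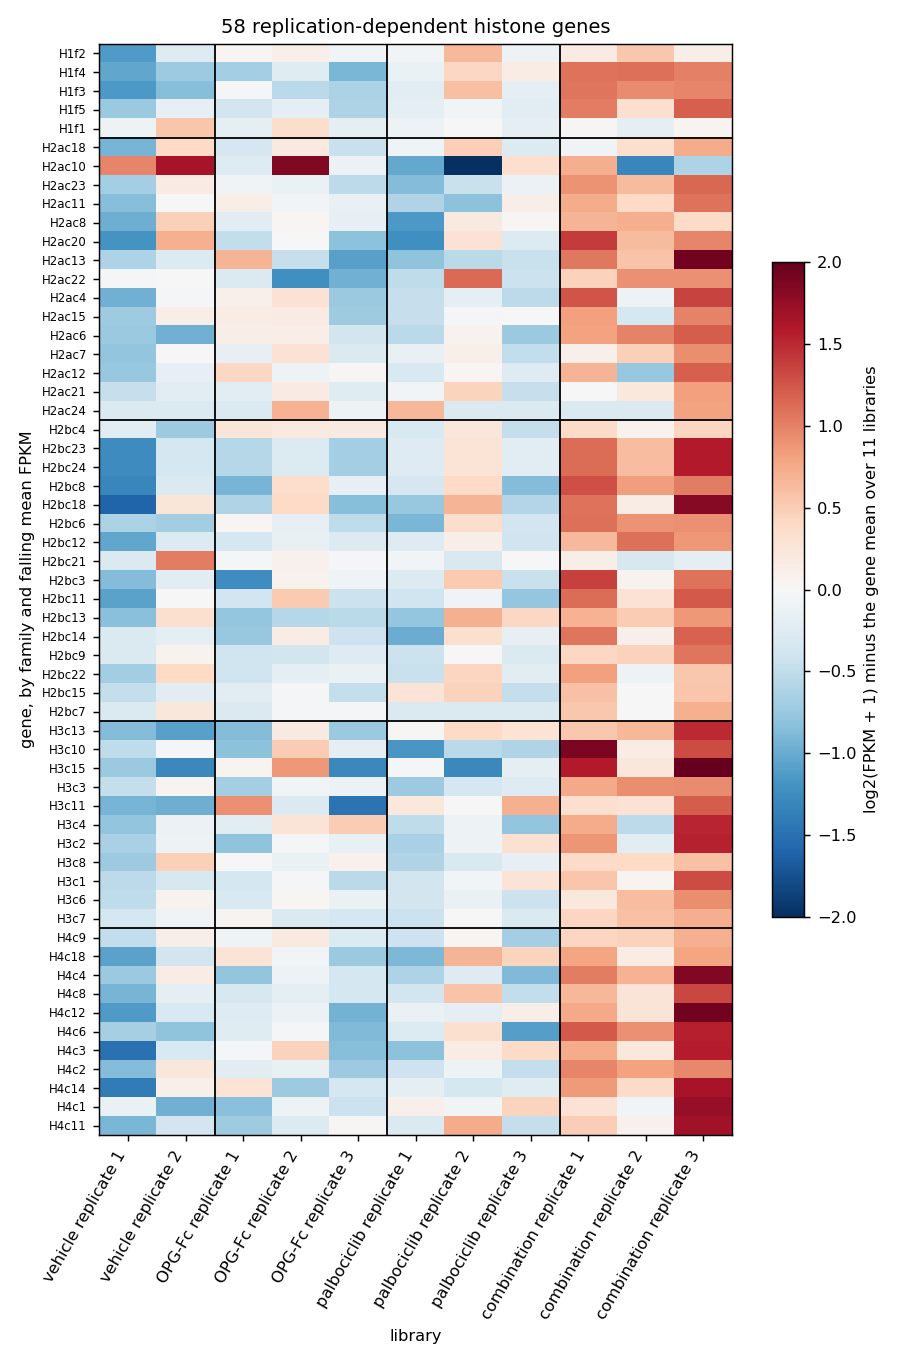
Log2(FPKM + 1) of the 58 histone genes (rows, by family and falling mean FPKM) in the 11 tumours (columns), each row minus its own mean; the colour scale ends at 2 and -2, and values beyond take the end colour. The 3 combination columns are red in most rows, palest in replicate 2, while H2ac10 and H2bc21 run otherwise, with their highest values in OPG-Fc replicate 2 and vehicle replicate 2.

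Palbociclib against vehicle is the contrast the genes were chosen from, and its values are a description only. Log2 differences are of log2(FPKM + 1), which understates the change of scarce genes. Over the 58 genes the median difference was 0.30, against -0.03 over all genes. Over the 54 that passed the filter it was 0.57 without vehicle replicate 2 and -0.06 without vehicle replicate 1, so the direction rested on which vehicle library was kept. H1f4 lay 1.02 ± 0.24 and H1f3 1.07 ± 0.29 higher (SE), and 1.18 ± 0.28 and 1.21 ± 0.34 higher without vehicle replicate 2. H2ac10 was at -2.29 ± 0.87 and at -1.95 ± 1.07 without that library, and H2bc21 turned from -0.49 ± 0.33 to 0.17 ± 0.23. In 9 of 58 genes every palbociclib library lay above both vehicle libraries (15.5%), against 14.2% of all genes. Against vehicle replicate 1 alone the count was 32 of 58 (55.2%), against 25.9% of all genes.

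The combination against OPG-Fc, which adds palbociclib to the decoy receptor, was used in the choice as well and is also given as description. Over the 58 genes the median difference was 1.04, against -0.04 over all genes. H1f4 lay 1.68 ± 0.21 and H1f3 1.40 ± 0.26 higher, while H2ac10 was at -0.90 ± 0.78 and H2bc21 at -0.14 ± 0.30. In 35 of 58 genes the groups did not overlap, with the combination higher (60.3%), against 12.2% of all genes. Ribosomal protein genes moved with the same contrast, with 80 of 85 fully higher, and their part in the result was not tested. With palbociclib averaged over both backgrounds the median over the 58 genes was 0.63, and H1f4 lay 1.35 ± 0.16, H3c13 1.29 ± 0.24, H1f3 1.23 ± 0.19 and H2bc23 1.18 ± 0.23 higher. Without vehicle replicate 2 these differences were 1.43 ± 0.17, 1.24 ± 0.27, 1.30 ± 0.21 and 1.41 ± 0.22.

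The combination against palbociclib asks what OPG-Fc adds in tumours already given the CDK4/6 inhibitor. Histone genes lay higher in the combination across all 5 families, though none passed the test singly. Over all 58 genes without a filter, 57 differences were above 0 and the median was 0.90, against 0.01 over all genes; 6 of the genes reach the filter only through combination libraries, so the unfiltered count is the one given. In 31 of the 58 (53.4%) every combination library lay above every palbociclib library, and in 0 every one lay below, against 11.7% higher and 6.03% lower of all genes in the table. The combination libraries also took part in the choice of the genes, so this comparison is not wholly apart from it.

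By family, the combination lay fully above palbociclib in 3 of 5 H1, 7 of 15 H2A, 8 of 16 H2B, 7 of 11 H3 and 6 of 11 H4 genes, against 11.7% of all genes. The median difference was 0.92, 0.70, 0.98, 0.87 and 0.94 in the same order. The smallest p were those of H3c3 (1.32 ± 0.23) and H2ac6 (1.40 ± 0.25), both with an adjusted p of 0.637 in limma; H4c4 lay 1.78 ± 0.35 and H2ac23 1.37 ± 0.28 higher. H2bc21 alone was not above 0, at -0.01 ± 0.30. Of the 58 genes, fitted without a filter, 0 passed (percent called 0), and 34 had an unadjusted p under 0.05, as had 1137 of 17181 genes. Without palbociclib replicate 2, the palbociclib library with the highest histone values, H2ac6, H2bc6, H4c6 and H1f3 passed, all higher, where 0.0459% of all genes were called higher and 1.05% lower; without vehicle replicate 2, 0 passed.

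**Figure D3:**
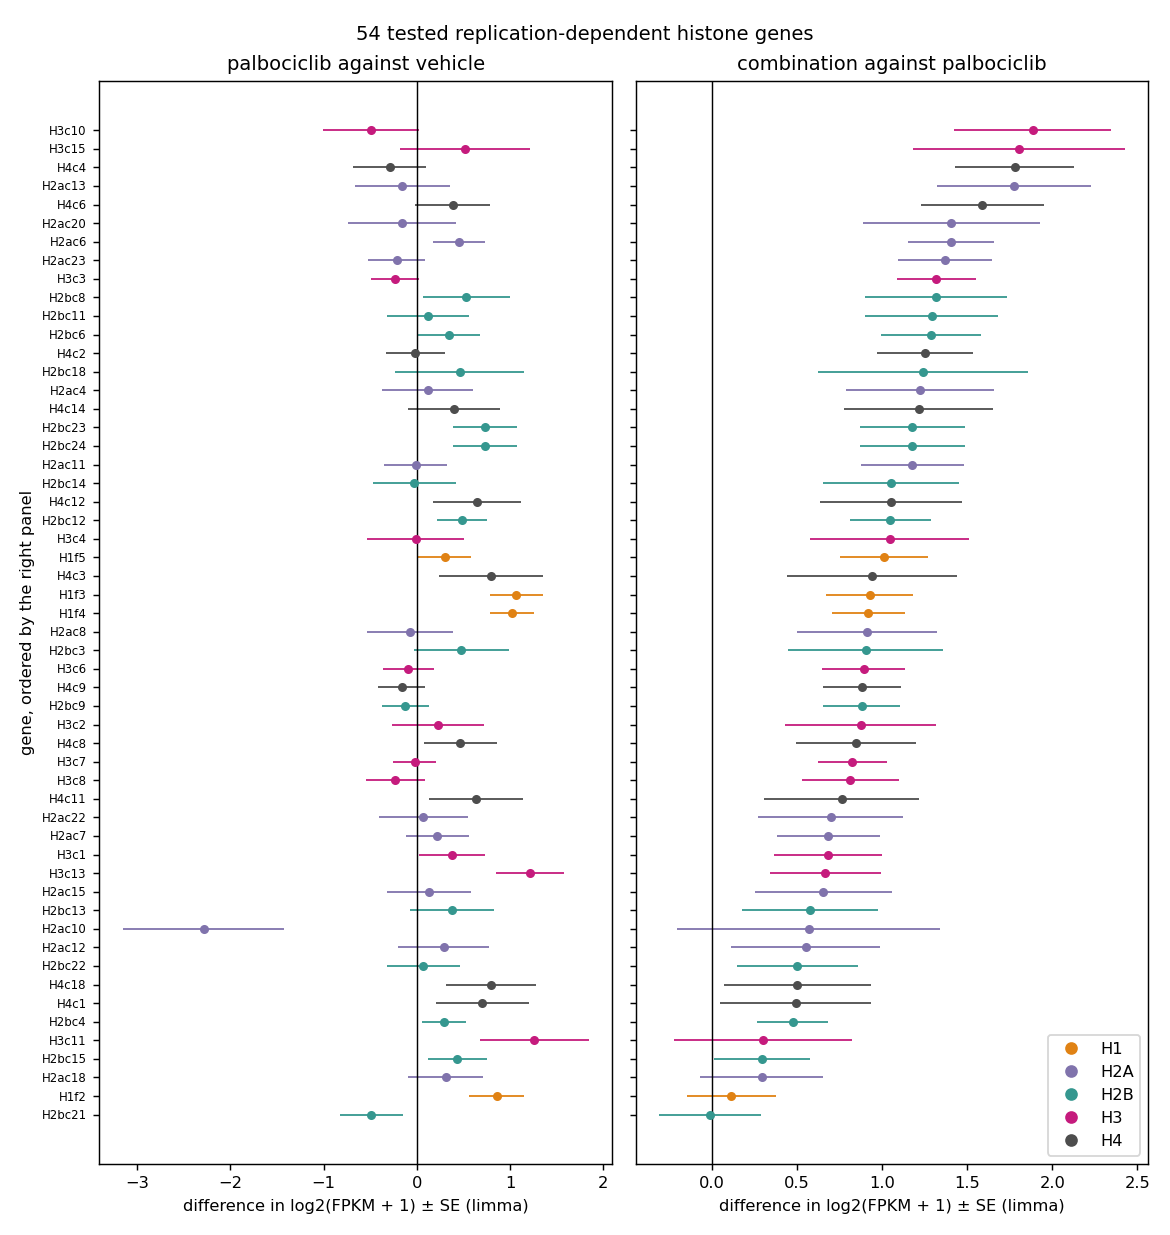
Difference in log2(FPKM + 1) with its standard error from limma (horizontal axes) for the 54 tested histone genes (vertical axis, ordered by the right panel, coloured by family). On the right, combination against palbociclib, points run from -0.01 for H2bc21 to 1.89 for H3c10, and 6 of the genes were tested only through their combination values; on the left, palbociclib against vehicle, points lie on both sides of 0 and H2ac10 is lowest at -2.29.

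OPG-Fc against vehicle asks what the decoy receptor does without palbociclib, and it uses the same vehicle libraries as palbociclib against vehicle. No histone gene passed (0 of 58 without a filter; percent called 0), and 3 had an unadjusted p under 0.05, as had 1558 of 17181 genes. The smallest p among those higher were those of H2bc4 (0.68 ± 0.23) and H2ac6 (0.81 ± 0.28), and among those lower those of H2ac22 (-0.82 ± 0.48) and H2bc21 (-0.36 ± 0.33), all with an adjusted p of 0.471 or above in limma. Without vehicle replicate 2, H2bc4 was at 0.42 ± 0.25, H2ac6 at 0.70 ± 0.34 and H2ac22 at -0.81 ± 0.60, H2bc21 turned to 0.30 ± 0.23, and 0 passed, where 0.00765% of all genes were called. The median difference was 0.20, against 0.01 over all genes, and over the 54 genes past the filter it was 0.54 without vehicle replicate 2 and -0.12 without vehicle replicate 1. In 7 of 58 genes (12.1%) OPG-Fc lay fully above vehicle, against 11.6% of all genes. Against vehicle replicate 1 alone these were 38 (65.5%), against 37.4% of all genes.

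Averaged over both backgrounds, OPG-Fc gave a median difference of 0.55 over the 58 genes, against 0.01 over all genes, with 0 called (percent called 0) and 31 at an unadjusted p under 0.05, as had 1612 of 17181 genes. H2ac6 had the smallest p, at 1.11 ± 0.19 (adjusted p = 0.189, limma), followed by H2bc12 at 0.73 ± 0.18, and the lower ones were H2bc21 at -0.18 ± 0.22 and H2ac10 at -0.13 ± 0.58. Without vehicle replicate 2, H2bc21 was at 0.15 ± 0.14 and H2ac10 at 0.04 ± 0.66, and 9 passed, all higher, where 3.46% of all genes were called, 3.17% higher and 0.291% lower: H2ac6 (1.05 ± 0.21), H2ac11, H2ac23, H2bc12, H2bc23 with H2bc24, H3c3, H3c8 and H4c2. The interaction asks whether OPG-Fc acts otherwise with palbociclib than without. Its median was 0.77 over the 58 genes and, over the 54 past the filter, 0.37 without vehicle replicate 2. In either fit 0 genes passed (percent called 0), and 12 of 58 and 6 of 54 had an unadjusted p under 0.05, as had 889 of 17181 and 633 of 13074 genes. H3c3 lay at 1.39 ± 0.35 and H4c4 at 1.89 ± 0.52, and H1f2 at -0.61 ± 0.39 and H2bc4 at -0.20 ± 0.31, with adjusted p of 0.647 or above in limma. Without vehicle replicate 2 these were 1.12 ± 0.35, 1.45 ± 0.52, -1.05 ± 0.34 and 0.06 ± 0.31 in the same order. A larger OPG-Fc effect on histone genes under palbociclib was therefore not shown by this test.

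Histone RNA is normally tied to S phase, so the histone values were set beside 50 genes of G1/S and DNA replication. Their mean log2(FPKM + 1) was 4.43 and 4.88 in vehicle, 4.47, 4.59 and 4.49 with OPG-Fc, 4.26, 4.30 and 4.65 with palbociclib and 4.83, 4.52 and 4.44 with the combination, and the groups overlapped. Some libraries ranked alike for both sets and others did not. As rank for histone and then for S-phase genes, combination replicate 1 was 2 and 2, and combination replicate 2 was 3 and 5. Vehicle replicate 1 was 11 and 9, palbociclib replicate 1 was 9 and 11, and palbociclib replicate 3 was 7 and 3. OPG-Fc replicate 1 was 8 and 7, OPG-Fc replicate 2 was 5 and 4, and OPG-Fc replicate 3 was 10 and 6. Combination replicate 3 was first of 11 for histone genes and rank 8 for S-phase genes. Vehicle replicate 2 was first for S-phase genes and rank 6 for histone genes. It is the library unlike the others by its markers, with epithelial markers summed to an FPKM of 38.5. Palbociclib replicate 2, rank 10 for S-phase genes, had the highest histone mean outside the combination.

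**Figure D4:**
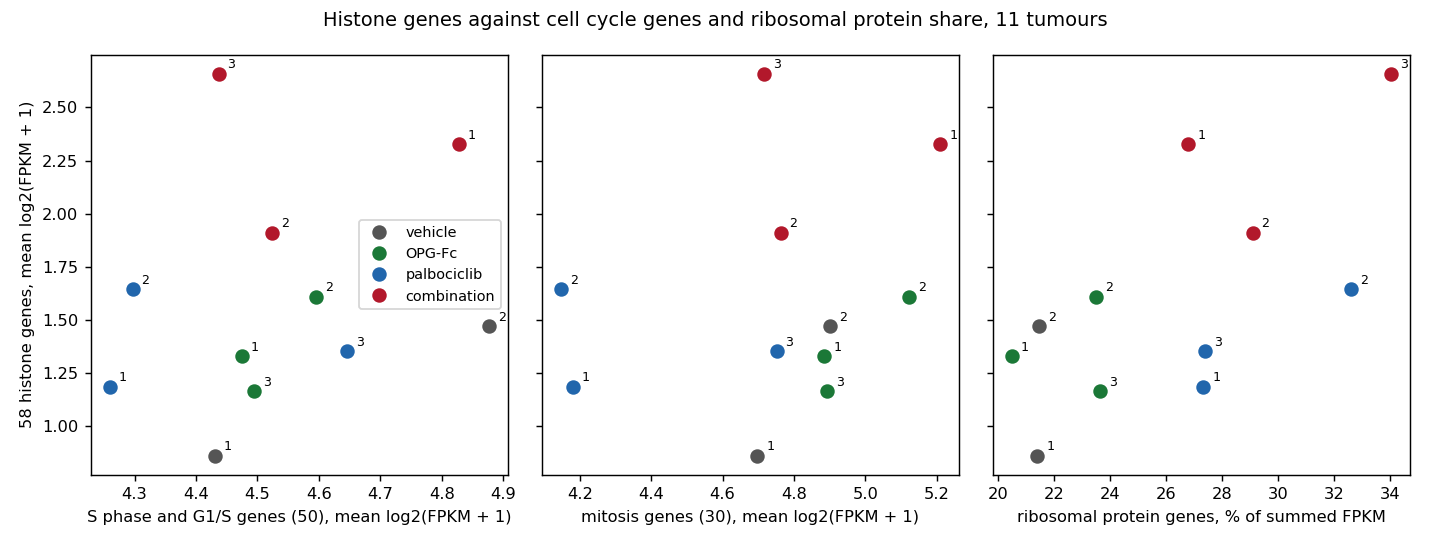
Mean log2(FPKM + 1) of the 58 histone genes (vertical axis) against the same mean of 50 S-phase genes, of 30 mitosis genes, and the percent of summed FPKM in ribosomal protein genes, 1 point per tumour with its replicate number. The combination tumours are the highest 3 on the vertical axis and overlap the palbociclib tumours on every horizontal axis; for mitosis genes, palbociclib replicates 1 and 2 lie lowest, at 4.18 and 4.15.

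Between the combination and palbociclib, 0 of the 50 S-phase genes passed, 42 differences were above 0, and the median was 0.23, against 0.90 for the 58 histone genes and 0.02 over all tested genes. Pcna, the sliding clamp of replication, had an FPKM of 169, 200 and 261 with palbociclib and 290, 232 and 234 with the combination. Tk1, the S-phase thymidine kinase, had 67.2, 82.0 and 91.4 with palbociclib and 131, 100.1 and 141 with the combination. The helicase subunits Mcm6 and Mcm7 overlapped, at 78.0 to 91.5 and 63.4 to 81.2 with palbociclib and 77.5 to 102 and 63.0 to 84.1 with the combination. Tk1 thus had no overlap while Pcna, Mcm6 and Mcm7 did, and in all 10 of the 50 S-phase genes had the combination fully above palbociclib (20%), against 11.7% of all genes.

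Mitosis genes were lowest in palbociclib replicates 1 and 2. Their mean log2(FPKM + 1) was 4.18, 4.15 and 4.75 with palbociclib, 5.21, 4.76 and 4.72 with the combination, 4.70 and 4.90 with vehicle and 4.88, 5.12 and 4.89 with OPG-Fc. In the combination against palbociclib all 30 differences were above 0 with a median of 0.53, and 0 passed. In 12 of the 30 (40%) the combination lay fully above palbociclib, against 11.7% of all genes and 53.4% of the histone genes. Birc5, the survivin of the chromosomal passenger complex, lay 1.03 ± 0.22 higher, with 57.4, 59.8 and 80.3 FPKM with palbociclib and 151, 101 and 157 with the combination. Ube2c and Ccnb2, which act in exit from and entry into mitosis, also had no overlap, while Top2a overlapped. Their highest palbociclib values were 98.6 for Ube2c and 48.4 for Ccnb2, in replicate 3. The lowest combination values were 118 and 56.4, in replicate 2. Against OPG-Fc the combination lay fully above in 35 histone genes, in 0 of 30 mitosis and 9 of 50 S-phase genes, and in 12.2% of all genes. That contrast was used in the choice of the histone genes, so their count partly restates the choice and is description only.

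The 11 variant histones, which are made outside S phase too and from ordinary polyadenylated messages, were far more abundant. H3f3b and H3f3a, which encode H3.3, had an FPKM of 306 to 989 and 435 to 822 over the 11 libraries, and neither kept the groups apart. H2az1, for the variant H2A.Z, had 272, 341 and 343 with palbociclib and 497, 448 and 563 with the combination, a difference of 0.66 ± 0.21 that did not pass (adjusted p = 0.730, limma). H1f0, the linker histone of resting cells, had 285 to 338 under palbociclib and 325 to 349 in the combination, and 50.8 in vehicle replicate 2. In the combination against palbociclib 0 of 11 passed and the median was 0.28. In that contrast 5 of 11 lay fully higher (45.5%), against 11.7% of all genes and 53.4% of the replication-dependent histone genes.

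Genes that make and trim histone messages lay near 0 in the same contrast. Of 18 tested genes of histone transcription and 3′ processing, 0 passed in the combination against palbociclib, 5 lay above 0, and the median was -0.10. Slbp had 57.0, 61.3 and 71.7 with palbociclib and 72.6, 51.4 and 61.4 with the combination (-0.04 ± 0.16), and Npat 7.35, 5.68 and 7.84 against 6.26, 6.29 and 3.96. Lsm10, a protein of the U7 particle, had 19.1, 20.2 and 18.7 with palbociclib and 22.8, 23.1 and 34.1 with the combination (0.42 ± 0.18, adjusted p = 0.730, limma), and its partner Lsm11 lay at 0.04 ± 0.17. Of the 5 decay genes 0 passed there; with palbociclib averaged over both backgrounds 1 passed, where 1.38% of all genes were called higher. It was Lsm1, a subunit of the ring that starts mRNA decay, 0.57 ± 0.10 higher (adjusted p = 0.0386, limma), with 12.2 to 17.4 FPKM with palbociclib and 8.08 to 11.9 without. In this contrast 0 of all genes were called higher when combination replicate 2 was left out. The same held without OPG-Fc replicate 1 or 3 and without palbociclib replicate 1 or 3. The Lsm1 call was thus lost in each of those fits. Upf1, Tut7 and Eri1, which act in histone mRNA decay, were at 17.0 to 26.4, 9.78 to 22.1 and 10.9 to 23.3 over the 11 libraries. Of the 18 histone chaperones, such as Nap1l1, Rbbp4, Rbbp7 and Ssrp1, 0 passed and the median was 0.02.

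Traits of the libraries and markers of other cells are given beside the combination against palbociclib. Summed FPKM over all genes was 651306 to 754480 under palbociclib and 704882 to 864670 in the combination; with every library scaled to the same sum, 32 histone genes still had no overlap, with the combination higher, and 7.21% of all genes did. The ribosomal protein share overlapped between the 2 groups, and palbociclib replicate 2, at 32.6%, was above combination replicates 1 and 2. Genes with transcripts under 700 bases moved with the histone genes, with a mean log2(FPKM + 1) of 3.47 to 3.48 under palbociclib and 3.52 to 3.65 in the combination. Their median difference was 0.16. After a correction for transcript length 30 histone genes had no overlap, against 9.7% of all genes, and the median of the tested histone genes was 0.79. Of those tested, 6 reach the filter only through combination libraries. Other genes with a single exon had a median of 0.10 over the 231 tested and were fully higher in 53 of all 500 (10.6%). The 3 adipocyte markers summed to an FPKM of 63.8, 66.5 and 47.1 with palbociclib and 233, 72.7 and 383 with the combination, and the 3 B and plasma cell markers to 0.25 to 0.29 and 0.80 to 12.5, without overlap. The 3 macrophage markers summed to 262 to 361 and 358 to 749, and the 4 keratinocyte markers to 4.23 to 474 and 2.30 to 33.9, with overlap. The difference was above 0 for 3 of 3 adipocyte, 3 of 3 B and plasma cell, 3 of 3 macrophage and 0 of 4 keratinocyte markers, and 0 of them passed. Ms4a1 was listed at 0 in palbociclib replicates 1 and 3. Outside these 2 groups the adipocyte markers reached 1273, in OPG-Fc replicate 2. The B and plasma cell markers reached 4873 there, in vehicle replicate 2, the library unlike the others by its markers. The part of these traits and cells in the result was not tested. A search by gene name for untailed RNA of other kinds found 0 genes in the table. Carry-over of untailed RNA could therefore not be tested with them.

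The same contrast was split by sequence features that the choice of genes did not use. Of the 24 with a long 3′ UTR, 15 had the combination fully above palbociclib and a median difference of 0.92; of the 33 with a short one, 15 and 0.85. Of 37 genes with a hairpin in the annotated transcript 23 lay fully higher (median 0.93), and of the 21 without, 8 (median 0.65). With the octamer in the promoter 7 of 11 lay fully higher (median 1.22), without it 21 of 41 (median 0.87). Some of the genes with it share 1 octamer between overlapping windows. Of all genes in the table, 11.7% lay fully higher in this contrast. These are counts without a test, and an annotated 3′ end does not say which end was used in these tumours.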

How the data were processed

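Poly(A) RNA was sequenced from 11 tumours, and the authors deposited FPKM values (fragments scaled by transcript length and library size) for 17181 gene symbols. The tools RSEM, Bowtie2 and HISAT and the builds GRCm39 and mm39 are named, per the submitters' processing notes; versions, roles and annotation are not given in the sources used here. No counts are held, and a search for whole reads in low values placed at best 41.2% to 52.5% of them within 0.15 of a whole read. Even spread gives 30% at a single setting, while these shares are the best of many settings, so the figures are unlike. The depth is unknown and no counting interval is given.

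Values were taken as log2(FPKM + 1). A gene was tested where 2 or more libraries reached an FPKM of 1, which kept 13074 genes and 54 of the 58 histone genes (not H1f1, H2ac21, H2ac24 and H2bc7); 6 passed only through combination libraries. All 11 libraries were fitted by group with limma 3.58.1 (R 4.3.3, trend in the variance prior), with a threshold of 0.05 on p adjusted by Benjamini-Hochberg across the tested genes and standard errors as errors. Fully higher or not overlapping means every library of a group above every library of the other, over all genes without a filter. The fit was tested on simulated data.

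The histone genes and all lists were chosen with earlier results of these data known. Values in every library are given for the 2 genes of highest mean FPKM per family and the 2 with the smallest p per direction, and of each list for up to 4 with the highest mean FPKM; H3c3, H4c4, H1f3, Lsm10, Lsm11 and Npat follow the same rule or were added after their values were seen. The 3′ ends and lengths came from GENCODE M21 (GRCm38), matched by symbol, synonym or gene identifier. Chromosomes and promoters came from RefSeq, the promoters on GRCm38.p6. GRCm38 is an older build than that of the authors. Alternatives varied the pseudocount (0.1), the filter (none, or an FPKM of at least 5), scaling, variance prior, library weights, groups fitted, replicate block, a length correction (spline with 5 degrees of freedom) and each library in turn; equal summed FPKM and the non-overlap counts were added after seeing the data. Python 3.11.15 with matplotlib 3.10.9 made the figures. A marker of the B and plasma cell list is not reported here and was left out of its sums.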

Additional observations from a re-analysis of the deposited data

How the results depend on the processing

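With 2 or 3 tumours a group and depth unknown, single scarce genes are uncertain, and counts of calls depended on the setting while the direction of the combination against palbociclib did not. Its median log2 difference over the tested histone genes was 0.77 to 1.11 when single libraries were left out and 1.38 with a pseudocount of 0.1, with a value of 0.79 to 1.18 under the other settings. With the filter at an FPKM of 1, 6 of the tested histone genes pass only through combination libraries, so those medians rest partly on it. Histone genes called in the combination against palbociclib numbered 0, except 25 with library weights (3.2% of all genes called higher) and 0 to 4 without single libraries. The number of the 58 without overlap, combination higher, was 30 to 46, where 7.21% to 19.8% of all genes had no overlap. The 46, without combination replicate 2, stood against 19.1% of all genes. The pseudocount of 0.1 also moved the median to 1.69 for the combination against OPG-Fc, 1.01 for palbociclib averaged and 0.92 for OPG-Fc averaged. Counts for palbociclib against vehicle, the combination against OPG-Fc and palbociclib averaged restate the choice of genes and test nothing. For the combination against OPG-Fc the count of 1 (0.00765% of all genes called higher) became 0 with that pseudocount, no filter, an FPKM of at least 5, median-of-ratios scaling, quantile normalization, the replicate block or length correction, 12 with only the compared groups (0.184% called higher) and 43 with library weights (10.9%). For palbociclib averaged the count of 6 (1.38% called higher) became 3 with no filter, 3 with a filter at FPKM 5, 2 with length correction and 0 with library weights. Without single libraries the counts ran from 0 to 16 for the combination against OPG-Fc, 0 to 13 for palbociclib averaged, 0 to 5 for palbociclib against vehicle, 0 to 2 for OPG-Fc against vehicle and 0 to 9 for OPG-Fc averaged (8 without vehicle replicate 1, 3 without palbociclib replicate 2). Without vehicle replicate 1 the counts of 13, 5, 2 and 8 stood against 53%, 52%, 40.3% and 30.7% of all genes called, so these shares of the 54 were below the background, and the 16, found when 1 vehicle library was left out, whichever it was, against 0.987% called higher; without vehicle replicate 1, the vehicle group is the library that stands apart. The medians then ran from 0.81 to 1.28, 0.46 to 0.77, -0.0581 to 0.57, -0.12 to 0.54 and 0.42 to 0.73 in the same order. Among single genes in the combination against palbociclib, H1f2 reversed to -0.0305 at equal summed FPKM and ran from -0.0179 to 0.36 without single libraries, H2ac10 from -0.0577 to 1.22 and H2bc21 from -0.14 to 0.0822, and H2bc21 was 0.0032 after length correction. The causes were not tested.

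Whether replicate numbers pair the tumours could not be decided. Over 15 same-number pairs the correlation of deviations from the group means ran from -0.406 to 0.528, and 5 were over 0.1. In groups this small the deviations of a group's libraries are tied to each other, which constrains these correlations. Pairs with different numbers, or within a group, were not compared. With the replicate block, the count for palbociclib averaged was 1 and the other counts were 0, with a median of 0.92 for the combination against palbociclib.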
